A study of Mus musculus with 5 samples.

Results

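The step from day 5 to day 10 of the conversion of mouse embryonic fibroblasts (MEFs) by a defined chemical medium was examined by comparing the day 10 library with the day 5 library. These are 2 of the 5 RNA-seq libraries of the time course, and it covers 12933 of 27729 genes, those that reached 10 expected counts on day 5 or on day 10. MEFs are mixed connective tissue cells grown from mouse embryos; here they came from the ICR strain, from embryos without head and inner organs, and the day 0 cells were kept in serum-containing MEF medium. From day 0 on, the cells grew in a serum-free induction medium called 6C in the labels and 5C in the study. It is based on DMEM/F12 with N2 supplement, basic FGF, vitamin C, 2-mercaptoethanol and the cytokine leukemia inhibitory factor. The day 5 and day 10 cells thus share strain, source and medium and differ in the time spent in it. Whether their RNA and libraries were prepared together is not given in the sources used here. Time in the medium therefore cannot be told apart from culture or preparation. The labels and the study's methods differ in the number of cells seeded per well, and the last time point is given as day 14 in one label and day 15 in another. There is 1 library per day. No comparison in the following has a replicate check, no test was made, and the intervals cover the counting error of these libraries and not the spread between cultures. RNA was measured in whole wells, so that fewer cells of a type and less RNA per cell cannot be told apart.

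Expected counts summed to 3392356 on day 5 and 3885124 on day 10. A count of 0 allows up to 0.884 counts per 1000000 on day 5 and 0.772 on day 10. Values below are normalized counts. These are expected counts divided by the effective size of their library and multiplied by the geometric mean of the effective sizes of the 5 libraries. Changes are log2 ratios of day 10 over day 5 with a pseudocount of 1. A gene is said to have risen or fallen where its normalized count changed over 2-fold. The 95% intervals are exact binomial intervals of the counts without the pseudocount, and counts from reads without molecular identifiers are not independent molecules.

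Fibroblasts are defined by collagens, fibronectin, vimentin and other products of matrix-forming cells. Glial cells of peripheral nerves, the Schwann cells, arise from the neural crest under the transcription factor Sox10, depend on neuregulin signals through the receptor Erbb3, and wrap axons in myelin. Neurons are recognised by neuronal tubulin, neurofilaments and synaptic vesicle proteins. Some defining genes of the labelled cell type are given first. In the wider list of fibroblast identity genes, given below, 6 of 20 kept members fell and 1 rose. Vimentin (Vim) had 17919 normalized counts on day 5 and 20044 on day 10, the collagen chain Col1a1 had 10542 and 16110, and Pdgfra, a growth factor receptor of fibroblasts, had 642 and 932. Among neuronal markers, doublecortin (Dcx) and the nuclear protein Rbfox3 were at 0 counts in both libraries. Others were counted, and 11 of 20 listed were kept. The neuronal tubulin Tubb3 had 91.8 and 84.2, and the growth cone protein Gap43 had 420 and 727.

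Between day 5 and day 10, 1659 genes rose, which is 12.8% of the 12933 genes kept, and 1188 fell, which is 9.19%. The other 10086 genes stayed within 2-fold. The median change over all genes was -0.01, and the middle range between quartiles ran from -0.52 to 0.55. Changes over 4-fold were counted in 435 genes upward and 144 downward, and changes over 8-fold in 141 and 48. The whole counting interval lay beyond 2-fold for 674 genes that rose and 376 that fell. How the calls split by direction depended on the scale. Of all calls 58.3% were upward with TMM scaling, 66.4% with scaling to the total counts and 87.7% in the deposited TPM values, in which the median of all genes shifted upward by 0.42.

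**Figure D1:**
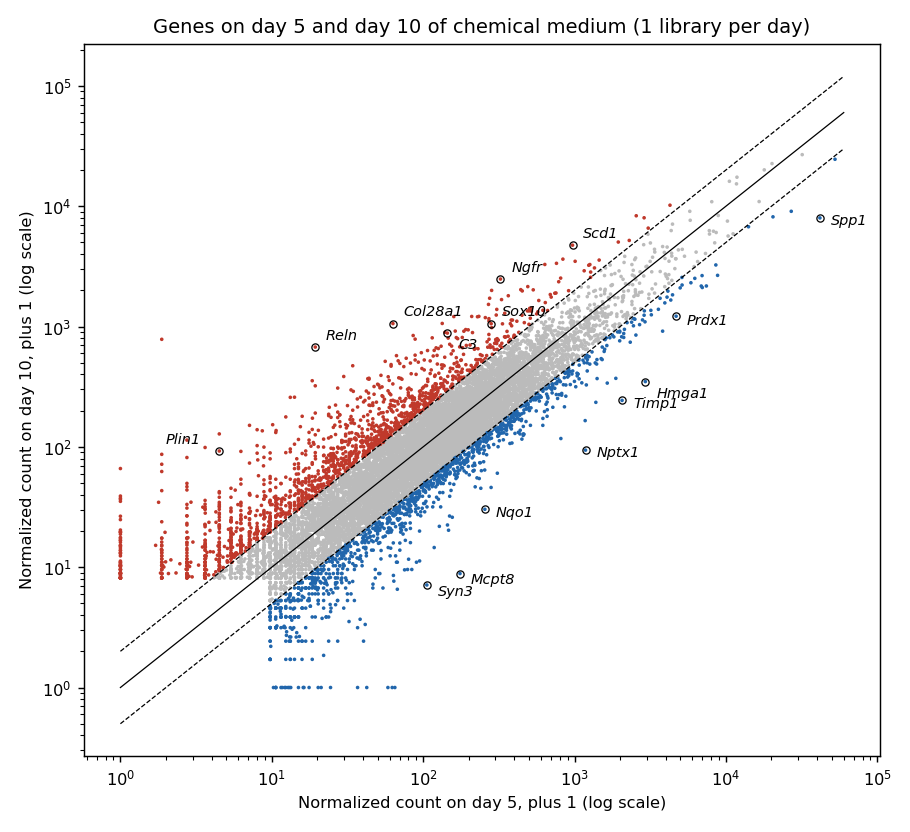
Normalized count plus 1 of each kept gene on day 5 (horizontal axis, log scale) and on day 10 (vertical axis, log scale), with 1 library per day; the solid line marks equal counts, the dashed lines 2-fold, red points are the 1659 genes that rose and blue points the 1188 that fell. Reln lies far above the line, at 18.4 on day 5 and 674 on day 10, and Spp1, at 41767 and 7994, lies below it among the most counted genes.

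The change followed gene length, which here is the transcript length RSEM assigned to each gene, averaged over the 5 libraries. When the kept genes were placed in 10 bins of equal size by length, the median change rose from each bin to the next. It was -0.75 in the shortest bin, with genes of up to 1067 bases, 0.01 in the sixth bin and 0.71 in the longest, with genes of 5487 bases or more. In the shortest bin 5.96% of the genes rose and 30.3% fell. In the longest bin 31.9% rose and 0.927% fell. The longest bin thus stood 1.45 above the shortest on the log2 scale, and Spearman's rho between length and change was 0.51 across genes, which are not independent replicates. The difference between the longest and the shortest bin was also taken within 3 classes of 4311 genes each by mean count, and it was 1.03 in the lowest class, 1.55 in the middle and 1.64 in the highest. The same difference was -0.49 between days 0 and 2, 1.50 between days 2 and 5 and -0.94 between days 10 and 14. Neighbouring steps share a library, and these values are set side by side only.

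The same trend was visible in the make-up of the libraries. Genes shorter than 1000 bases took 22.1% and 26.2% of the counts on days 0 and 2, and their share was 13.8% on day 5, less than on either earlier day. It went down to 7.64% on day 10 and was 10.0% on day 14. Genes longer than 5000 bases took 7.46% and 5.61% on days 0 and 2, then 9.81% on day 5. Their share of 17.0% on day 10 was the highest of the 5 libraries, and day 14 had 13.1%. The mean length of a counted gene, weighted by counts, was 2659 bases on day 5 and 3284 on day 10, and on day 10 it was the highest of the 5 libraries. What gave this trend was not tested. Each change is therefore also given, where it matters, relative to the median change of the gene's own length bin. On that scale 1360 of the 12933 kept genes were over 2-fold higher and 757 over 2-fold lower. List counts relative to length are to be set beside these and not beside the 1659 and 1188 of the plain scale.

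**Figure D2:**
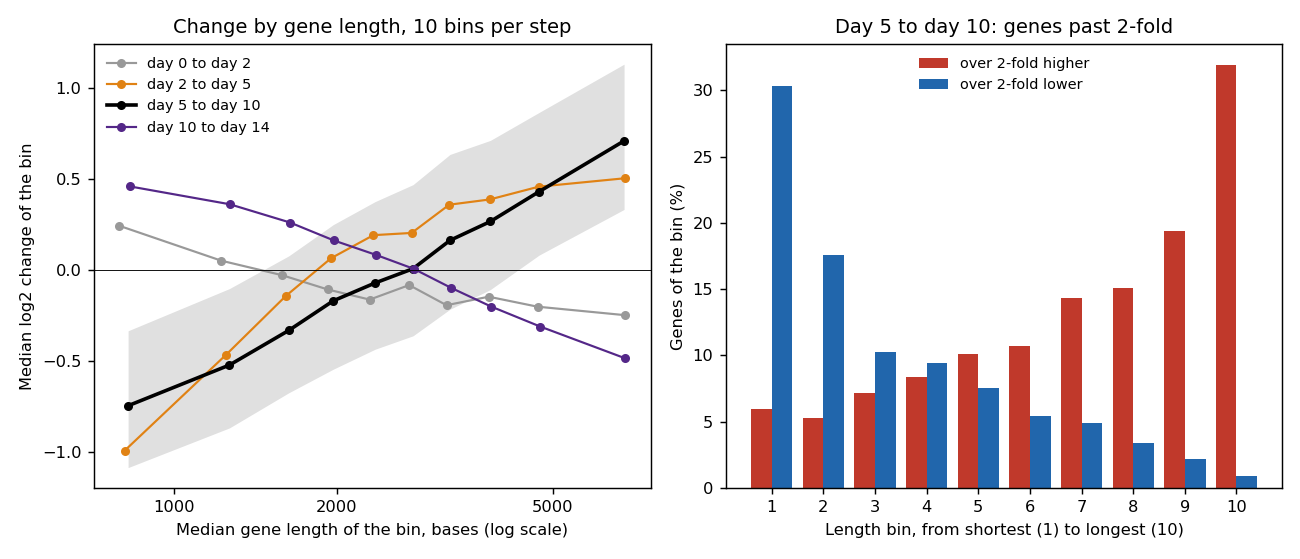
Left, median log2 change of 10 bins of genes against the median gene length of the bin in bases (log scale) for the 4 steps of the time course, with the range between quartiles shaded for day 5 to day 10; right, the percentage of genes in each bin that rose (red) or fell (blue) from day 5 to day 10. The black line climbs from -0.75 to 0.71, and the share of genes that fell drops from 30.3% to 0.927% while the share that rose reaches 31.9%.

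The 12 genes that rose most, ranked by the interval bound nearest 0 among genes with 100 or more counts in either library, included several of nerve sheath and matrix. Reln, the secreted guidance protein reelin (chr5:21884454-22344702, mm10, as for all coordinates of genes given here), was at 8.91, 21.7 and 18.4 up to day 5, and at 674 on day 10 and 441 on day 14, a change of 5.12 (4.58 to 5.90). Mag, myelin-associated glycoprotein (chr7:30899176-30914873), went from 3.50 to 127 and stood at 21.5 on day 14. Col28a1, a collagen chain of peripheral nerve (chr6:7997808-8192617), went from 62.1 to 1058, a change of 4.07 (3.75 to 4.45), and was at 364 on day 14. For each of these genes the day 10 library held the highest count of the 5.

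Another 8 of the 12 were of mixed function. Vash1, an inhibitor of vessel growth, rose from 1.75 to 113, and Cnmd, the cartilage glycoprotein chondromodulin, from 0.875 to 85.7. Srcin1, a regulator of Src kinase, rose from 17.5 to 353, and Sntb1, a syntrophin of the dystrophin complex, from 2.63 to 97.8. Pdpr, a subunit of pyruvate dehydrogenase phosphatase, rose from 1.75 to 80.6, and Lrrc8b, a subunit of volume-regulated anion channels, from 6.13 to 150. Their counts on day 5 were low, and their intervals are wide. Adamts12, a matrix metalloprotease, rose from 12.3 to 257. Sv2b, a synaptic vesicle glycoprotein, rose from 13.1 to 258, and it alone among those of the 12 described here was higher again on day 14, at 436. Changes of those described here ran from 4.07 to 5.53, and relative to their length bins they ran from 3.55 to 6.28.

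Among the 12 genes that fell most were chromatin proteins of growing embryonic cells, a protease inhibitor and detoxifying enzymes. Hmga1, a chromatin protein that binds AT-rich DNA (chr17:27556497-27563674), was at 4727, 7710, 2934, 348 and 825 on the 5 days and changed by -3.07 (-3.22 to -2.94). Its near-identical copy Hmga1b (chr11:120762794-120764419) changed from 93.7 to 10.3, but reads shared with Hmga1 make this value uncertain. Hmga2 (chr10:120361275-120476469), of the same family and the target of let-7 microRNAs, fell from 1382 to 233, a change of -2.56 (-2.74 to -2.39). Timp1, the inhibitor of matrix metalloproteases (chrX:20870166-20874735), fell from 2059 to 242, a change of -3.08 on the log2 scale, and of -2.34 relative to its short length bin. Nqo1, a quinone reductase (chr8:107388225-107403206), fell from 255 to 29.3, and Gsto1, a glutathione transferase (chr19:47854970-47864790), from 1174 to 164.

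Spp1, osteopontin, a secreted phosphoprotein of bone and of macrophages (chr5:104435118-104441050), was among the most counted genes and fell from 41767 to 7994, a change of -2.39 (-2.42 to -2.36). Its counts were 309 on day 0, 17547 on day 2 and 4055 on day 14, so that the day 5 library held its peak. Nptx1, a secreted neuronal pentraxin, likewise peaked on day 5, with 2.97, 224, 1180, 92.9 and 10.7 over the 5 days, and changed by -3.65 (-3.94 to -3.41) from day 5 to day 10. Mcpt8, a serine protease of basophils, was at 455 on day 2, 174 on day 5 and 7.86 on day 10. Syn3, a synapsin, fell from 105 to 6.11, Klhdc8a, a kelch-domain protein, from 117 to 13.6, and Tm4sf1, a tetraspanin-like membrane protein, from 811 to 116. Long Nptx1, Syn3, Klhdc8a and Hmga2 stood lower relative to their length bins than on the plain scale, with -4.08, -4.16, -3.45 and -2.82.

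**Figure D3:**
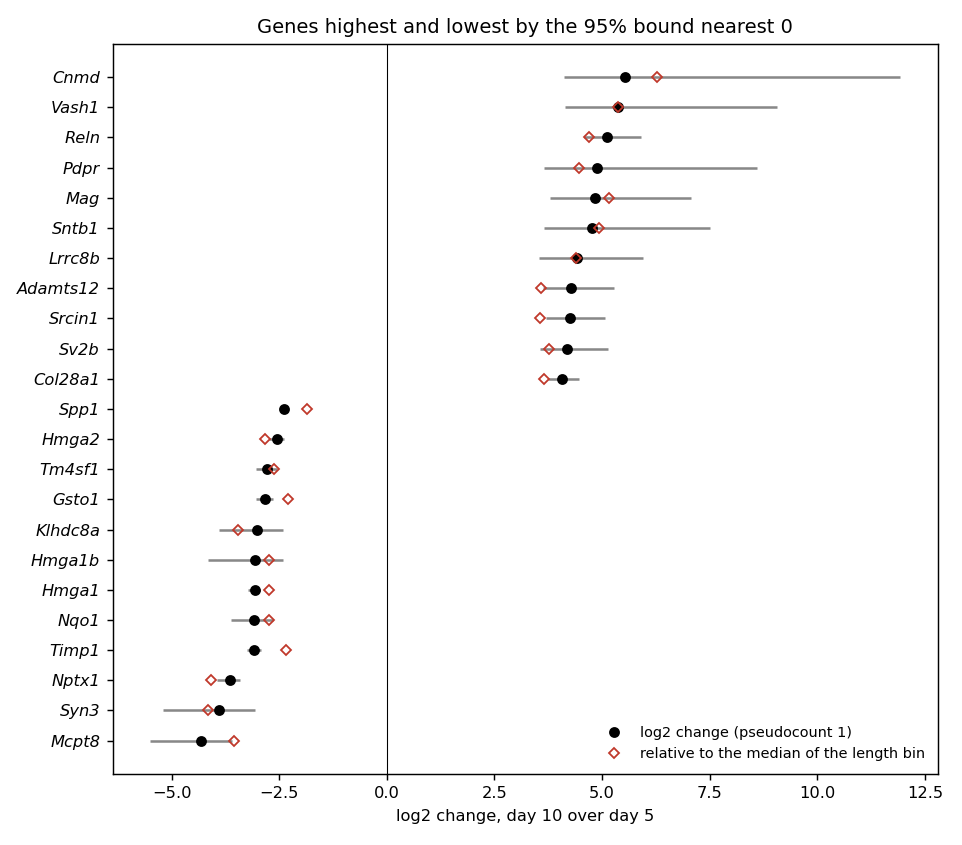
Log2 change from day 5 to day 10 of the named genes among the 12 that rose most and of the 12 that fell most; black points are the changes with a pseudocount of 1, grey lines the exact 95% intervals of the counts without it, and red diamonds the change relative to the median of the gene's length bin. All black points that rose lie at 4.07 or above, and the wide lines belong to genes with few counts on day 5, such as Cnmd with 1 expected count.

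Genes of Schwann cells and the neural crest rose as a group. Of 28 listed genes 25 were kept; 22 of them rose and none fell, against 12.8% and 9.19% of all genes, with a median change of 2.10 where all genes had -0.01. Relative to the length bins the median was 2.16, and 21 of the 25 were still over 2-fold. Sox10, the transcription factor of the lineage, had 6.93, 21.7, 280, 1055 and 1993 normalized counts in the libraries from day 0 to day 14, and rose by 1.91 (1.74 to 2.09) in this step. Erbb3, the neuregulin receptor, went from 190 to 943, and Ngfr, the low-affinity neurotrophin receptor, from 323 to 2480, a change of 2.94 (2.79 to 3.10). Counts of Sox10, Erbb3 and Ngfr were higher on each later day from day 5 to day 14.

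Genes of the myelin sheath were part of this rise. Mbp, a myelin basic protein, went from 42.1 to 368, and Cnp, a phosphodiesterase of myelinating cells, from 271 to 1161. Mal, a membrane proteolipid, went from 60.4 to 468 and Pmp22, a peripheral myelin protein, from 700 to 1756. Cldn11, a tight junction protein of myelin, went from 33.3 to 471, and the gap junction protein Gjc3 from 33.5 to 288. Mbp, Mal and Pmp22 were lower on day 14 than on day 10, with 147, 192 and 786, whereas Cnp was higher, with 1367. The adhesion protein Cdh19, a cadherin of Schwann cell precursors, rose by 3.29 (3.01 to 3.62), from 84.9 to 841, and reached 1157 on day 14. Among regulators, Egr2, which drives myelination, went from 14.0 to 58.6, and the neural crest factors Foxd3, Tfap2a and Pax3 from 97.7 to 264, from 55.1 to 133 and from 7.88 to 27.8. Pou3f1, another regulator of myelination, had 12.3 on day 5 and 11.4 on day 10, and the late myelin gene Prx had 27.9 and 45.7. Mog, a protein of central myelin, Fa2h and Ncmap had too few counts to be kept.

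Sox2, a transcription factor of neural progenitors and of Schwann cell precursors that the study follows, was counted 50 times on day 5 and 274 times on day 10. Its normalized counts were 2.97, 7.24, 43.8, 196 and 497 on the 5 days, so each library exceeded the one before it, and its change in this step was 2.14 (1.72 to 2.63), or 2.31 relative to its length bin. Stat3, the transcription factor downstream of leukemia inhibitory factor, was at 679 and 1005, a change of 0.56 (0.44 to 0.69) that did not pass 2-fold. Bcl2, an inhibitor of apoptosis, rose from 22.8 to 73.6, a change of 1.65 (1.06 to 2.37) that was 0.94 relative to its bin of long genes. Neurod1 and Pax6, transcription factors of neuronal and neural fate, had 0 and 1 expected counts on day 5 and 1 and 2 on day 10.

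Genes shared by all neurons moved in both directions. Of 20 listed, 11 were kept, 2 rose and 3 fell, with a median change of 0.20. Tubb3, the neuronal tubulin detected by TuJ antibodies, had 22.1, 39.8, 91.8, 84.2 and 161 over the 5 days, and its change in this step was -0.12 (-0.52 to 0.27), which was 0.05 relative to its length bin and 0.32 in the TPM values. The microtubule protein Map1b, which is also made in glia, rose from 165 to 550 by 1.74 (1.51 to 1.98), and Map2 had 64.8 and 91.4. Synaptophysin (Syp), a synaptic vesicle protein, rose from 8.75 to 43.0. The neurofilament genes Nefl and Nefm had 72.6 and 111 on day 5 and 17.9 and 55.7 on day 10, of which Nefl changed by -1.97 (-2.73 to -1.36). Gap43, a growth cone protein, had 420 and 727 and then 2411 on day 14. Nes, nestin of neural progenitors, had 563 and 787 and then 2949 on day 14, and its change of 0.48 became -0.22 relative to its length bin.

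Genes of astroglia rose in 7 of 16 kept members and fell in none, with a median of 0.87 and of 0.93 relative to length. Gfap, the glial filament protein, had 0, 12.7, 45.5, 220 and 134 counts over the 5 days and rose by 2.25 (1.85 to 2.73). Sparcl1, a secreted matrix protein, rose from 180 to 811, and the calcium-binding protein S100b from 19.3 to 62.1. The water channel Aqp4 rose from 1 to 16 expected counts, with an interval from 1.02 to 9.10 that shows how little these counts fix. Gja1, a gap junction protein, and Aldh1l1, a folate enzyme of astrocytes, had 791 and 192 on day 5 and 513 and 134 on day 10. Gfap and S100b are also made by Schwann cells, so the list is not one of astrocytes alone.

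**Figure D4:**
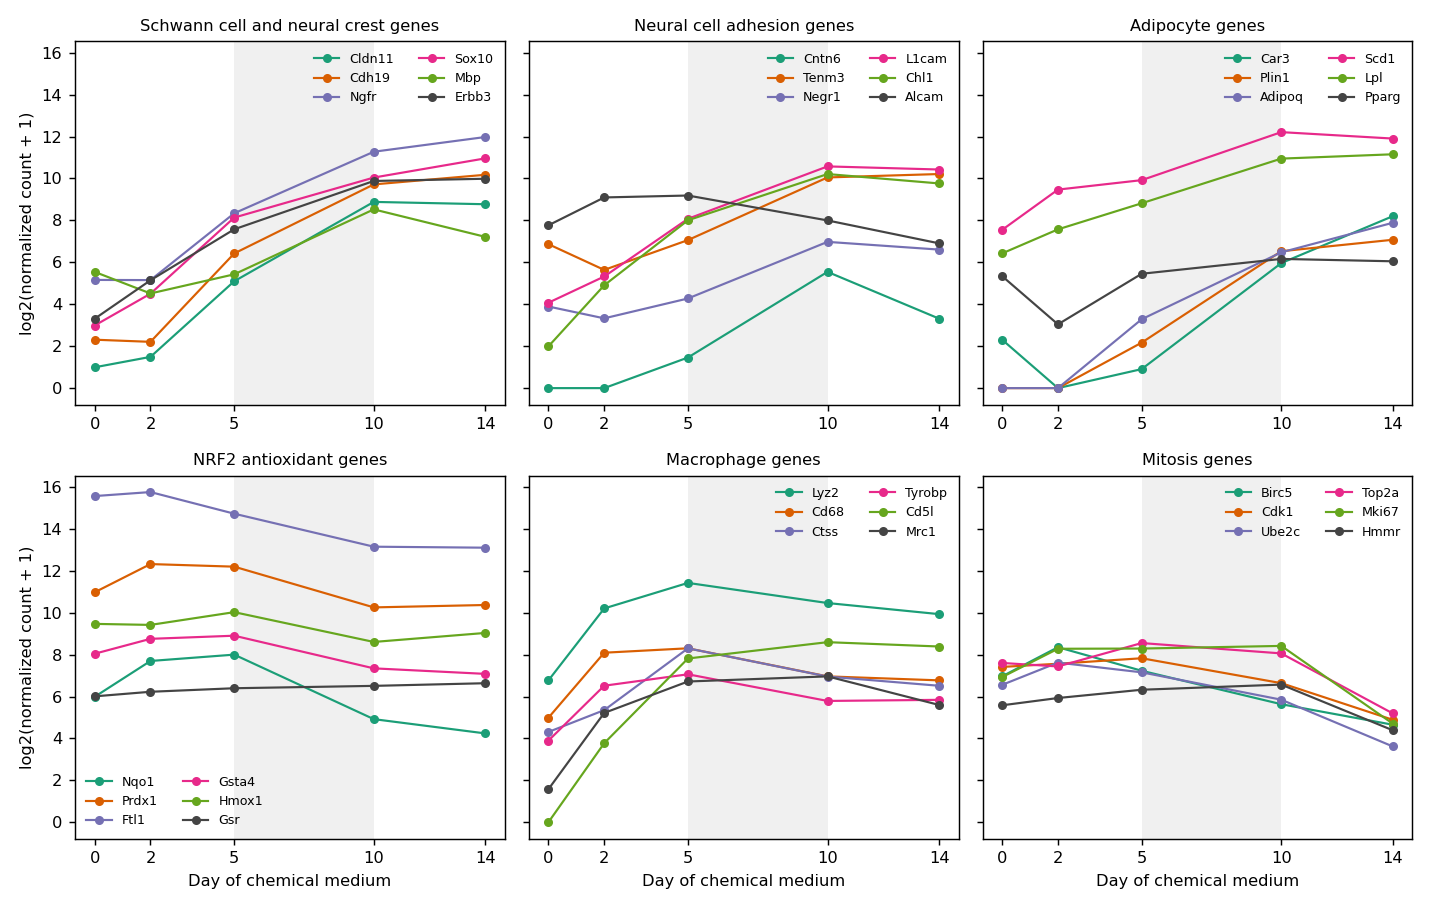
Levels of 6 members each of 6 gene lists as log2 of the normalized count plus 1 (vertical axis) against the day of chemical medium (horizontal axis), 1 library per point, with the step from day 5 to day 10 shaded. In the shaded step the Schwann cell and adipocyte genes drawn climb, Cldn11 from 33.3 to 471 counts, while Nqo1 and Cd68 drop, from 255 to 29.3 and from 314 to 124.

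Cell adhesion molecules of neural cells rose in 15 of 22 kept members and 1 fell. Their median was 1.78, and it was 1.22 relative to the length bins since their median length was 4927 bases. L1cam, which joins axons and Schwann cells, had 15.8, 39.1, 269, 1526 and 1377 counts over the 5 days and rose by 2.50 (2.33 to 2.68), so that the days from 5 on lie apart from the first 2. Its relative Chl1 went from 256 to 1185, Nrcam from 79.6 to 307 and Nfasc, a protein of the node of Ranvier, from 52.5 to 119. The teneurin Tenm3 went from 133 to 1060, the contactin Cntn6 from 1.75 to 45.7, and the lipid-anchored Negr1 from 18.4 to 125. Alcam, an adhesion protein of many cell types, fell from 582 to 255.

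Guidance molecules of growing axons are mostly long genes. Of 34 kept, 10 rose and 1 fell, and the median of 0.58 became -0.04 relative to the length bins, at a median length of 5706 bases. Relative to length 7 were over 2-fold higher and 2 lower. Beside Reln, the repellent Sema3b rose from 228 to 1205 by 2.40 (2.22 to 2.60), the Slit receptor Robo2 from 52.5 to 265 and the ligand Slit2 from 178 to 526. Robo1, another Slit receptor, had 121 and 161, a change of 0.42 (0.11 to 0.73) that was -0.29 relative to its length bin. Ephrin-A1 (Efna1), a contact-dependent ligand, fell from 28.9 to 11.4.

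Among 15 kept genes of neurotrophic and neuregulin signalling, 7 rose and 2 fell, with a median of 0.98 and of 0.70 relative to length. Among receptors of the GDNF family, 2 rose, Gfra3 from 162 to 916 and Gfra2 from 118 to 385, together with the ligands Artn, from 101 to 435, and Gdnf, from 15.8 to 65.0. Gfra1 had 193 and 259. The ligands Bdnf and Nrg1 fell, from 123 to 50.7 and from 40.3 to 13.6. Ntrk2, the receptor of Bdnf, had 243 on day 5 and 197 on day 10. The neuregulin receptor Erbb3 rose, as given above, and Erbb2, of the same receptor family, had 137 and 271. The co-receptor kinase Ret, through which GDNF signals, was not kept.

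Of 26 kept genes for voltage-gated channels, 11 rose and 1 fell, and their median of 0.81 was 0.38 relative to length. Kcna2, a potassium channel of axons and glia, had no count on days 0, 2 and 5 and 50 expected counts on day 10, which is 13.6-fold higher when the floor of 3 counts is put in place of the day 5 count. The exact interval, which also covers the counting error on day 10, starts at 3.41 on the log2 scale. Kcna6 and Kcna1, of the same family, rose from 114 to 804 and from 2.63 to 29.3. Scn7a, an atypical sodium channel found in glia of peripheral nerve, rose from 87.5 to 785 by 3.15 (2.87 to 3.48) and was at 198 on day 14, and Scn8a, the sodium channel of nodes, rose from 4.38 to 44.3.

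**Figure D5:**
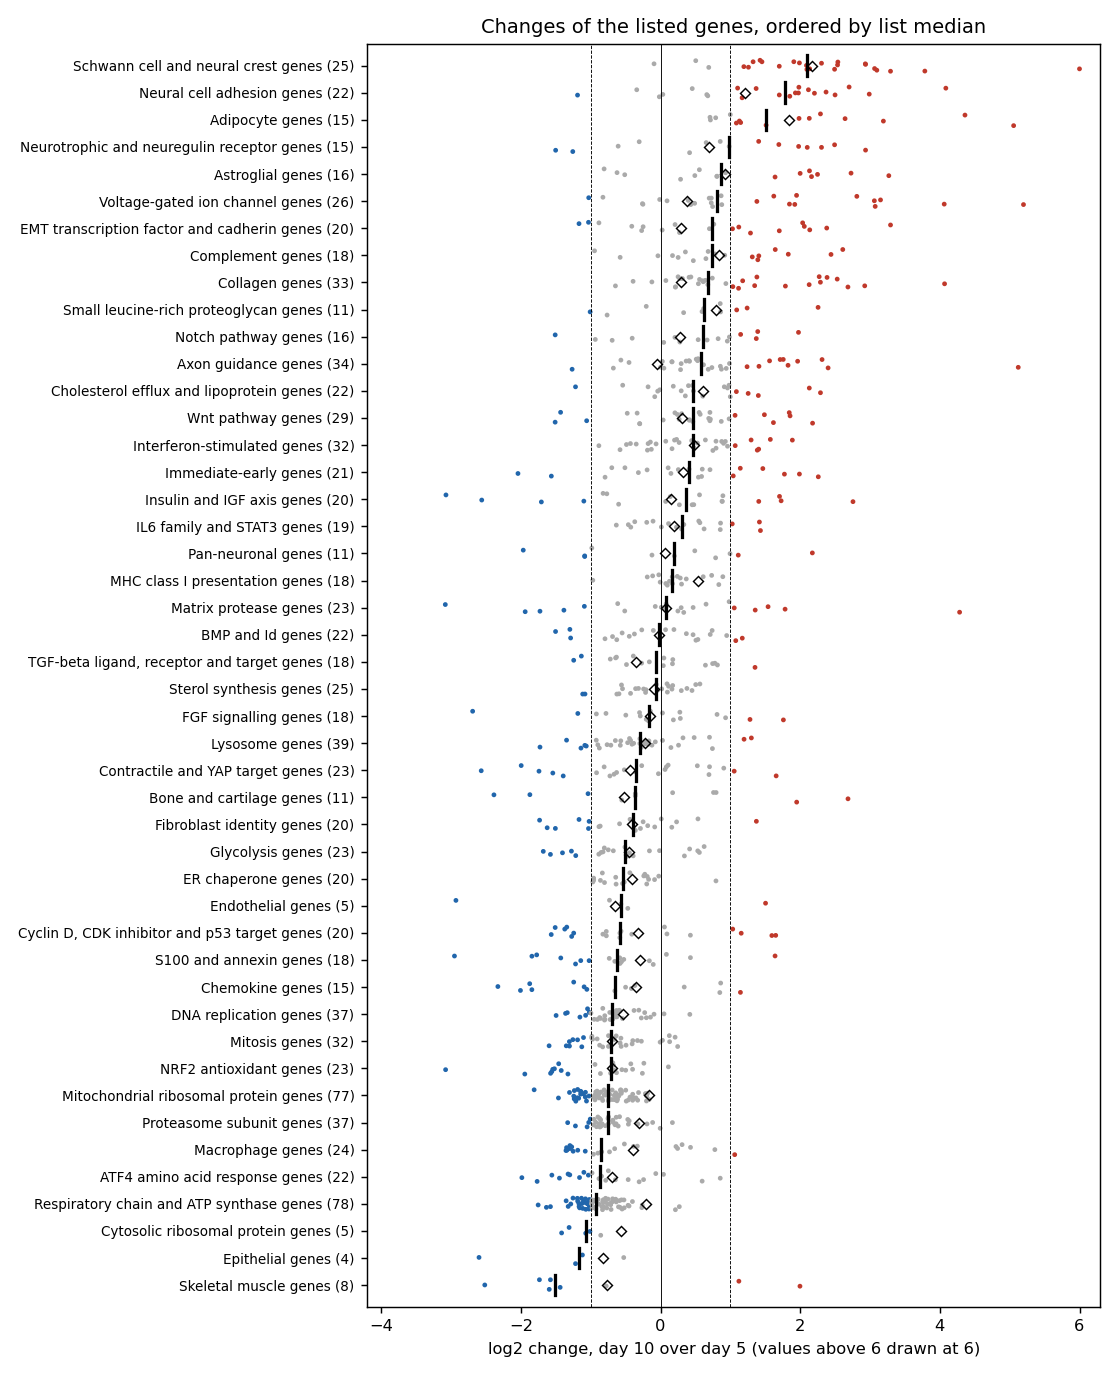
Log2 change from day 5 to day 10 of each kept member (points) of 46 gene lists, with the number of kept members in brackets; red points rose, blue points fell, black bars mark the list median and diamonds the median relative to the members' length bins. The Schwann cell list stands highest at 2.10, with its diamond at 2.16, whereas the respiratory chain list has its bar at -0.92 and its diamond at -0.21.

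Matrix genes of fibroblasts split by molecule. Of 33 kept collagen genes 14 rose and none fell, with a median of 0.68, or 0.29 relative to length, where 11 were over 2-fold higher and 1 lower. Beside Col28a1, the fibril-associated Col14a1 rose from 158 to 1209, the collagen VI chains Col6a5 and Col6a6 from 42.6 to 279 and from 17.8 to 108, and the basement membrane collagen Col15a1 from 165 to 808. The fibril-forming Col5a3 rose from 490 to 2146. The main interstitial collagens stayed within 2-fold: Col1a1 had 10542 and 16110, Col3a1 11826 and 17422, and Col1a2 8061 and 10899. Fibronectin (Fn1) had 20157 and 22611, a change of 0.17 (0.14 to 0.19) that was -0.26 relative to length.

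Genes of fibroblast identity fell in 6 of 20 kept members, and 1 rose. Their median was -0.40 on both scales, but relative to length 2 members were over 2-fold lower in place of 6. Cd34, a surface glycoprotein of tissue fibroblasts and progenitors, had 19.8, 1073, 875, 263 and 174 counts over the 5 days and changed by -1.73 (-1.91 to -1.56), and Pi16 fell from 76.9 to 26.4. Postn, the matrix protein periostin, rose from 1944 to 5037. Of the contractile and YAP-dependent genes, 5 of 23 fell and 2 rose. Smooth muscle actin (Acta2) and transgelin (Tagln) fell from 666 to 253 and from 790 to 271, Tpm2, a tropomyosin, from 857 to 214 and Ankrd1 from 47.3 to 7.14, while vinculin (Vcl) rose from 333 to 1052. The list's median of -0.36 was -0.43 relative to length, where 7 were over 2-fold lower and 1 higher, and 0.05 in the TPM values.

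Genes of the transition between epithelial and mesenchymal states, which the study follows, went both ways. Of 20 kept transcription factors and cadherins, 9 rose and 2 fell, with a median of 0.73, or 0.30 relative to length, where 6 were over 2-fold higher and none lower. Cdh2, N-cadherin of neural and mesenchymal cells, was at 755, 317, 303, 1245 and 612 over the 5 days and rose by 2.04 (1.87 to 2.21). Its day 10 count was the highest of the 5 and its day 5 count the lowest. Zeb2, a repressor of E-cadherin that is also needed for Schwann cell maturation, rose from 232 to 1214 by 2.38 (2.20 to 2.57), and its relative Zeb1 had 196 and 319, a change of 0.70 (0.47 to 0.94). Twist1 and Twist2, factors of mesenchymal cells, fell from 165 to 80.0 and from 90.8 to 39.9, while Snai1 had 189 and 102 and Snai2 149 and 125. For Snai2 the change of -0.25 (-0.56 to 0.06) was 0.20 in the TPM values. Of epithelial markers, Epcam had 4 and 5 expected counts, Ocln none in either library, and E-cadherin (Cdh1) 1.75 and 0.714 normalized counts. Of 14 epithelial genes 4 were kept, and the keratin Krt18 fell from 65.6 to 10.0.

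Proteases of the matrix and their inhibitors divided evenly, 5 of 23 rising and 5 falling, while relative to length 3 were over 2-fold higher and 5 lower. The aggrecanase Adamts5 and its relative Adamts1 rose from 203 to 702 and from 388 to 1130. Mmp3, stromelysin, fell from 6979 to 2109 after 17.8 on day 0 and 3025 on day 2, and Plau, urokinase, from 510 to 239. Of S100 and annexin genes, 7 of 18 fell and 1 rose, and relative to length 4 were over 2-fold lower. S100a6 fell from 7426 to 2172 and Anxa8 from 617 to 171, and S100b was the one that rose. Of TGF-beta genes, 1 of 18 rose and 2 fell, shares of 5.56% and 11.1% against 12.8% and 9.19% of all kept genes. The co-receptor Tgfbr3 went from 740 to 1891 and the ligand Tgfb1 from 312 to 131.

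Genes for other cell types were present and moved as well. Of 30 macrophage genes 24 were kept, 9 fell and 1 rose, and the summed normalized counts of the list were 5131 on day 5 and 3088 on day 10. Their median of -0.85 was -0.39 relative to the length bins, and on that scale 2 were over 2-fold lower and none higher. Cd68, a lysosomal membrane protein, and the cathepsin Ctss fell from 314 to 124 and from 314 to 123, and the receptor subunits Tyrobp and Trem2 from 132 to 54.3 and from 114 to 45.7. Lyz2, lysozyme, had 2738 and 1407, and the receptor Csf1r 112 and 70.5. Other macrophage genes did not fall: Cd5l had 224 and 385, Mrc1, the mannose receptor, 104 and 124, and Adgre1, the F4/80 antigen, 62.1 and 72.6. Vsig4 was at 0 in both libraries, and Cd74 and Cx3cr1 were at 0 on day 10. Their part in the fall of Spp1, Mmp3 and lysosomal genes, which macrophages also express, was not tested.

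Of 39 lysosomal genes 5 fell and 2 rose, shares of 12.8% and 5.13% against 9.19% and 12.8% of all kept genes. Their median of -0.29 was 0.17 in the TPM values, and relative to length 3 were over 2-fold lower. The cathepsins Ctsl and Ctsd fell from 8808 to 2662 and from 14096 to 6745, and the membrane protein Scarb2 rose from 312 to 771. Chemokine genes fell in 7 of 15 kept members, and relative to length 5 were over 2-fold lower and 4 higher. Among those that fell were Ccl7, from 385 to 107, and Ccl2, from 711 to 333, which attract monocytes. Cxcl10, an interferon-induced chemokine, was the 1 that rose on the plain scale, from 20.1 to 45.7.

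Of 18 kept complement genes 7 rose and none fell, with a median of 0.73, or 0.84 relative to length. C3, the central complement protein, had 1.98, 16.3, 144, 881 and 1044 counts over the 5 days and rose by 2.61 (2.38 to 2.86), C4b from 68.0 to 374, and Cd59a, an inhibitor of the membrane attack complex, from 103 to 323. Clu, clusterin, had 347 and 338. Of 32 interferon-stimulated genes 6 rose, which is 18.8% against 12.8% of all kept genes, none fell and 26 stayed within 2-fold, with medians of 0.46 and 0.49. The guanylate-binding proteins Gbp7, Gbp3 and Gbp2 rose from 63.9 to 239, from 81.4 to 217 and from 85.8 to 226, while Isg15, a ubiquitin-like modifier, had 281 and 256 and Irf7 176 and 130. None of the 18 genes of MHC class I presentation passed 2-fold in either direction.

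Adipocyte genes rose in 11 of 15 kept members and none fell. The median was 1.51, and 1.83 relative to length. Plin1, the coat protein of lipid droplets, had no count on days 0 and 2, then 3.50, 91.4 and 134, and rose by 4.36 (3.32 to 6.60). Adipoq, adiponectin, also had no count on days 0 and 2 and rose from 8.75 to 88.1 and then to 236, and Car3, a carbonic anhydrase of fat and muscle, from 0.875 to 61.4 and then to 294. Scd1, a fatty acid desaturase, rose from 969 to 4743 by 2.29 (2.20 to 2.38), lipoprotein lipase (Lpl) from 450 to 1975 and the fatty acid-binding protein Fabp4 from 398 to 847. Pparg and Cebpa, the transcription factors of fat cells, had 42.9 and 89.2 on day 5 and 70.7 and 147 on day 10 and stayed within 2-fold. Leptin and resistin were not kept.

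Other lipid genes moved less. Of 22 genes of cholesterol efflux and lipoproteins 5 rose and 1 fell, with the transporter Abca1 going from 383 to 1013 and the sterol carrier Npc2 from 4082 to 1755. Of 25 genes of sterol synthesis 2 fell, Fdps from 1136 to 524 and Fdft1 from 644 to 304, and none rose. The share that fell, 8%, lay near the 9.19% of all kept genes. The sterol list's median of -0.06 was 0.46 in the TPM values.

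Genes of mitosis fell in 8 of 32 members and none rose, with a median of -0.70, and of -0.69 relative to length. On the latter scale 4 of the 32 were over 2-fold lower. Cdk1, the mitotic kinase, had 169, 188, 226, 98.5 and 28.6 counts over the 5 days and changed by -1.19 (-1.50 to -0.89). Its count was highest on day 5 and lowest on day 14. Birc5, survivin, fell from 149 to 48.6, Ube2c, a ubiquitin enzyme of mitotic exit, from 141 to 56.6, and the kinase Aurka from 84.9 to 35.0. The proliferation antigen Mki67 had 312 and 340 and the topoisomerase Top2a 374 and 265. On day 14 Top2a was at 35.5, and the median change of the list was -2.30 from day 10 to day 14. Of 37 genes of DNA replication 7 fell and none rose, among them the licensing factor Cdt1, from 109 to 37.8, and thymidine kinase Tk1, from 135 to 52.8, and relative to length 4 of the 37 were over 2-fold lower.

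Regulators of the cell cycle and targets of p53 went both ways. Cdkn1a, the p21 inhibitor, fell from 2449 to 1013, Cdkn2a from 1037 to 408 and Cdkn2b from 822 to 277, while Cdkn1b, the p27 inhibitor, rose from 59.5 to 134. The p53 targets Bax and Mdm2 fell from 936 to 328 and from 1260 to 486. The whole list holds D cyclins, inhibitors of cyclin-dependent kinases and p53 targets. Of its 20 genes 6 fell and 4 rose, and relative to length 4 were over 2-fold lower and 3 higher.

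The transcription factor NRF2 induces genes that respond to oxidants, and ATF4 those that respond to amino acid shortage. Of 23 NRF2-dependent genes 9 fell, none rose and 14 stayed within 2-fold, with a median of -0.71, and of -0.69 relative to length, where 6 were over 2-fold lower. Nqo1 was named above. Prdx1, a peroxiredoxin, had 2007, 5106, 4686, 1218 and 1319 counts over the 5 days and changed by -1.94 (-2.02 to -1.87). Srxn1, which restores peroxiredoxins, fell from 647 to 225, the heme oxygenase Hmox1 from 1040 to 388, and the ferritin chains Ftl1 and Fth1 from 27012 to 9070 and from 20453 to 8159. The glutathione reductase Gsr had 83.1 and 90.0. Of 22 ATF4-dependent genes 9 fell, none rose and 13 stayed within 2-fold, with a median of -0.86, and of -0.69 relative to length, where 7 were over 2-fold lower and 1 higher. Nupr1, a stress-induced chromatin protein, fell from 435 to 127 by -1.77 (-2.03 to -1.52), and the transcription factors Ddit3 and Atf5 from 234 to 92.7 and from 570 to 255. Atf4 itself had 759 and 422, and Phgdh, of serine synthesis, 471 and 398. Of 20 chaperones of the endoplasmic reticulum none passed 2-fold.

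Promoter windows were read for these 2 lists, since 39.1% and 40.9% of their kept members fell. RefSeq windows of 300 bases (GRCm38.p6, 250 before to 50 after the start) were searched on both strands for TGATGCAAT, a form of the site that ATF4 binds with C/EBP proteins, and for TGACNNNGC, the core of the antioxidant response element. The ATF4 letters were in 2 of 19 kept genes with a window, 10.5%, against 0.222% of 27025 genes, and the antioxidant letters in 8 of 18, 44.4%, against 14.0%. Members were listed as dependent on these factors, so the higher shares describe the lists and not this step. Among genes that fell, 1 of 8 held the first and 2 of 7 the second. The other kept genes with a match, among them Aars, Gclm and G6pdx, stayed within 2-fold. The 3 genes that fell and held a match are printed to show where the letters lie. Capitals mark the match, which in each of the 3 reads on the strand opposite to the gene, with its leftmost base at -111 in Nupr1 (chr7:126625421-126625720, minus strand), at -133 in Prdx1 (chr4:116685349-116685648, plus strand) and at 29 in Srxn1 (chr2:152105274-152105573, plus strand), counted from the start.
Nupr1: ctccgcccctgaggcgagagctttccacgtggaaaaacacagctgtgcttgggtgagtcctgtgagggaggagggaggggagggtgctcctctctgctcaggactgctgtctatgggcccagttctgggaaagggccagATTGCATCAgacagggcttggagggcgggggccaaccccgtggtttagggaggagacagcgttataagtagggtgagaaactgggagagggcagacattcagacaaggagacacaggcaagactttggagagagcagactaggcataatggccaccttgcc
Prdx1: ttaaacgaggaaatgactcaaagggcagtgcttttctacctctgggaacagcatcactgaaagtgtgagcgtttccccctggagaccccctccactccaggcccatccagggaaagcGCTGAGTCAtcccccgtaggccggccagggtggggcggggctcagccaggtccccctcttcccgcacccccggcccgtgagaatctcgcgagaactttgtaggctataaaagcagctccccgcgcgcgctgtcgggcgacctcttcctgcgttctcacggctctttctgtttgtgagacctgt
Srxn1: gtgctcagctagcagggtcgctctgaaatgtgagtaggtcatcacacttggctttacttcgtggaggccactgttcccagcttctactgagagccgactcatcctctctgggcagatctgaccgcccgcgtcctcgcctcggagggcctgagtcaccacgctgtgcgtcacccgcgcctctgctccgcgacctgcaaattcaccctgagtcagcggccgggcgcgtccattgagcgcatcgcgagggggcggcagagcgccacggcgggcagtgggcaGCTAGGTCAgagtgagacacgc
A match is a description of these letters and not of binding. In Nupr1 and Prdx1 the match lies before the start, in genes that changed by -1.77 and -1.94, and in Srxn1 it lies after the start, in a gene that changed by -1.52.

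Lists of short genes of basic cell machinery had lower medians on the plain scale than relative to genes of their own length. Of 78 kept genes of the respiratory chain and ATP synthase 28 fell and none rose. Their median was -0.92, but -0.21 relative to the length bins, where 2 were over 2-fold lower, at a median length of 652 bases. Among them Atp5l, a subunit of ATP synthase, fell from 718 to 212 and Uqcrq, a subunit of complex III, from 458 to 147. Of 77 genes of mitochondrial ribosomal proteins 18 fell, with a median of -0.75 that was -0.17 relative to length, where 4 were over 2-fold lower. Of 37 proteasome genes 5 fell, which is 13.5% against 9.19% of all kept genes. Their medians were -0.75 and -0.30, and relative to length none of them was over 2-fold lower. Just 5 genes of cytosolic ribosomal proteins were analysed here, and 4 fell, among them Rplp1, from 6229 to 2513. Their median of -1.07 was -0.56 relative to length, and none was over 2-fold lower on that scale.

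Genes of glycolysis are longer, with a median length of 2050 bases, and their median of -0.51 was -0.45 relative to length. Of 23, 5 fell and none rose, and relative to length 4 were over 2-fold lower and 2 higher. Slc2a1, a glucose transporter, fell from 235 to 72.8, Eno1, enolase, from 1405 to 530 and Gapdh from 4439 to 1833. For Gapdh the change of -1.28 was -0.53 relative to its bin of short genes, and for Slc2a1 it was -1.68 on both scales.

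In the Notch pathway 4 of 16 kept members rose and 1 fell, the receptor Notch1 from 123 to 487 and the protease Adam10, which cuts Notch, from 518 to 1342, and the list's median of 0.60 was 0.28 relative to length. On that scale 1 member was over 2-fold higher and 2 were lower. In the Wnt pathway 6 of 29 rose and 3 fell, with the receptors Fzd8 and Fzd4 going from 82.3 to 298 and from 11.4 to 55.0 and the target Axin2 from 8.75 to 34.3. These are shares of 20.7% and 10.3%, against 12.8% and 9.19% of all kept genes. Relative to length 6 Wnt genes were over 2-fold higher and 4 lower. Of 19 genes around IL6 and STAT3, through which leukemia inhibitory factor acts, 3 rose and none fell, the receptor chains Il6st and Lifr from 690 to 1845 and from 172 to 351 and the acute-phase protein Saa3 from 172 to 464. The share that rose, 15.8%, lay near the 12.8% of all kept genes. Relative to length 2 members were over 2-fold higher and none lower.

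The list for FGF, a factor of the medium, holds ligands, receptors and downstream genes. Of 18 kept members 2 rose and 2 fell, each 11.1%, against 12.8% and 9.19% of all kept genes. Those that rose were the ligands Fgf5, from 56.9 to 195, and Fgf10, from 35.0 to 86.4. Those that fell were Etv4, a transcription factor induced by FGF, from 144 to 21.4, and the ligand Fgf18, from 17.5 to 7.14. Among 20 genes listed for the insulin and IGF axis, 4 rose and 4 fell. Those that fell include the chromatin proteins Hmga1 and Hmga2, named above, which are counted in this list. The adaptors Irs1 and Irs2 rose from 19.3 to 136 and from 23.6 to 80.5, Igfbp5 from 2555 to 8327, and the imprinted RNA H19 fell from 52552 to 24551. In the BMP list 2 of 22 rose and 3 fell, shares of 9.09% and 13.6% against 12.8% and 9.19% of all kept genes. Its median was -0.02, and relative to length none was over 2-fold higher and 3 were lower. The antagonist Grem1 went from 318 to 111 and Id1, an early BMP target, from 343 to 140. Of 21 immediate-early genes 6 rose and 2 fell. Atf3 rose from 48.1 to 234, Fos from 487 to 1348 and Jun from 617 to 1363, Fosl1 fell from 130 to 30.7, and on day 14 Atf3 and Fos were at 2007 and 4342.

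The remaining cell type lists had few kept members. Of 24 skeletal muscle genes 8 were kept, 5 fell and 2 rose, and relative to length 3 were over 2-fold lower and 1 higher; desmin (Des) went from 164 to 53.6, and the factors Myf5 and Myod1 were at 0 in both libraries. Of 12 endothelial genes 5 were kept, with summed counts of 140 and 94.5. Of 19 bone and cartilage genes 11 were kept, 2 rose and 3 fell, with Runx2 and Sox6, factors of skeletal cells, going from 62.1 to 243 and from 26.3 to 174 and Spp1 falling as given above. Of 11 small leucine-rich proteoglycans 3 rose and 1 fell, among them Prelp, from 91.0 to 216, and Aspn, from 35.0 to 75.7.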

How the data were processed

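RNA of MEFs was measured in 1 TruSeq library for each of 5 days (0, 2, 5, 10, 14). Per the submitters' processing notes Bowtie, RSEM and mm10 were used; versions and the gene annotation are not given in the sources used here. The authors deposited expected counts per gene, which are RSEM estimates without scaling for library size, used for all results. The authors also deposited TPM values, scaled by gene length and to 1000000 per library, used as an alternative, and FPKM values, not used here. RSEM lengths are per gene and library.

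Symbols and coordinates came from GENCODE M21 on GRCm38, which named 27247 of 27729 identifiers; the others held 0.277% of the day 5 and 0.169% of the day 10 counts. TMM factors (edgeR 4.0.16, R 4.3.3) came from rounded counts of all 5 libraries, with DESeq2 1.42.0 size factors as an alternative. Intervals were computed with scipy 1.17.1 in Python 3.11.15. The depth, 3392356 and 3885124 counts, limits the precision of single genes. The calculation was tested on simulated counts that held counting error and set changes alone. They held no length trend and no spread between cultures, so the test checks the arithmetic only.

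Named genes were the 12 highest and 12 lowest by the interval bound nearest 0 with 100 or more counts, up to 3 changed members of each list with 30 or more counts, and genes the study follows. Other members and genes were named after their values were seen. The step, the lists and the rules were chosen with earlier results of these data known. The alternatives were other scalings, filters, pseudocounts, thresholds and length corrections. Some members are counted in their lists and not reported here by name.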

Additional observations from a re-analysis of the deposited data

How the results depend on the processing

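No paired analysis was possible because there is 1 library per day, and for the same reason no library could be left out. The counts of genes that rose and fell were 2779 and 390 with the TPM values, where the median change was 0.40. They were 1079 and 751 with a filter of 50 counts and 2573 and 1845 with a filter of 1 count, where the difference between the longest and the shortest bin was 1.57 and 1.22. Beyond 4-fold there were 435 and 144, and with the whole interval beyond 2-fold 674 and 376. Relative to the length bins 1360 genes rose and 757 fell. Relative to a smooth length trend, an alternative chosen after seeing the data, they were 1343 and 751. These changes follow from the number of genes, the threshold or the removal of length; for TPM the cause was not tested. Under DESeq2 size factors, TMM on both libraries alone, total counts, rounding, and pseudocounts of 0.5 and 5, both counts stayed within 1.5 times. The length corrections leave no length trend by construction. Of 46 list medians, 7 had the other sign with TPM values, namely the contractile, TGF-beta, sterol, lysosome, BMP, FGF and bone lists, 3 with total counts, and 1 (axon guidance) relative to length. The FGF list's median was -0.16, and 0.29 with TPM. The BMP median was 0.37 with a filter of 50 counts, and the bone median went from -0.36 to 0.80. Genes with few counts on day 5 have wide intervals at this depth.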

Other observations

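Genes that do not code for proteins were not taken as a class of their own in the lists, although single ones such as H19 were members. By the GENCODE class of the gene, 163 long intergenic RNA genes were kept, of which 54 rose and 17 fell, with a median change of 0.41, and 143 antisense genes, of which 34 rose and 22 fell, with a median of 0.28. Of 53 processed pseudogenes 7 rose and 26 fell, with a median of -0.92. Of the 12361 protein-coding genes 1514 rose and 1095 fell, with a median of -0.02, and of all kept genes 12.8% rose and 9.19% fell. Gene length was not taken into account in these values, whether the reads were counted by strand is not given in the sources used here, and pseudogenes share sequence with their parent genes, so that counts of single members are uncertain. In 61 genes the counts were above 0 on day 10 and at 0 on day 5, and in 23 the reverse.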
